A study of Mus musculus with 3 samples.

Results

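Genes of ribosome biogenesis and RNA polymerase I were followed in cultured B16 cells, a mouse melanoma line, before doxorubicin and 2 and 4 h into treatment. The 44 members were chosen by name, by a rule that sets no threshold on a measured value: factors of polymerase I transcription, proteins of small nucleolar ribonucleoproteins (snoRNPs), multifunctional nucleolar proteins, and assembly factors of the small and large ribosomal subunits. All 44 had probe sets on the array, 97 in all, and 43 passed a filter on dim signals, among 9723 genes that passed in the whole series. The passing members were read through 83 probe sets.

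Each group was 1 culture of B16 cells on 1 Affymetrix Mouse430_2 array: untreated at 0 h, and at 2 h and at 4 h after addition of 1 µg/ml doxorubicin, a DNA-intercalating anthracycline drug that acts on topoisomerase II. Cells were grown in serum-containing medium and total RNA was labelled. With 1 array per time point there were no replicates, so no test across cultures was possible, and no untreated culture at 2 h or 4 h was analysed here, so drug and time in culture cannot be told apart. Other label fields name bone marrow-derived macrophages and "ET", an abbreviation left unexplained there. The arrays were washed in fluidics modules 3, 4 and 1 at 0, 2 and 4 h, so module and time cannot be told apart either.

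Markers of pigment cells were checked against those of other cell types. Of 14 pigment cell markers, 14, 12 and 13 had a signal of 200 or more at 0, 2 and 4 h, and their summed signal was 184970, 187475 and 190755. The sum is carried by the brightest markers: the median marker signal was 7489, 2420 and 1417, lower at each later time. Of 19 macrophage markers, 6, 4 and 4 reached 200, with summed signals of 4687, 5600 and 6021. Among defining macrophage genes, Itgam, Ptprc, C1qa and C1qc stayed under 100 on each array, while Csf1r read 522, 424 and 376 and Adgre1 302, 197 and 301. Cd68, a lysosomal protein found in other cells too, had the brightest of these signals and was higher at each later time, at 1884, 3044 and 3699. Lyz2 read 372, 414 and 398, and Spi1 330, 172 and 198. Summed signals of the 8 fibroblast, 6 lymphocyte and 6 endothelial markers on the array were 3825 to 4063, 873 to 1134 and 750.0 to 843. Any part of such cells in the values below was not tested. Signals are in array units after scaling each array to a trimmed mean of 500. They depend on each probe set's affinity, so they do not rank the genes by mRNA amount.

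Ribosome production starts in the nucleolus, where RNA polymerase I copies the ribosomal DNA into a long precursor RNA. Small nucleolar RNAs, held in box C/D and box H/ACA particles, guide its methylation and pseudouridylation, and many assembly factors fold, cut and load it with ribosomal proteins. Anthracyclines are known to block polymerase I transcription, and the transcription factor Myc is known to drive many genes of the pathway. The arrays read messenger RNA of the protein factors, and ribosomal RNA itself was not analysed here.

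At 2 h, 2 of 43 passing members were lower than at 0 h by 2-fold or more, and none was higher by that much. They were Gnl3, which encodes the nucleolar GTPase nucleostemin, and Surf6, a nucleolar RNA-binding protein. This share of 4.65% lies near the 5.69% of all 9723 genes that were lower by 2-fold or more at 2 h (1.41% were higher). At 4 h, 6 members were lower by 2-fold or more, namely Gnl3, Polr1c, Surf6, Rrs1, Wdr43 and Nob1, and again none was higher. Among all genes 14.4% were lower and 2.32% higher, so 6 of 43 is close to the background share. In such bulk RNA, fewer cells that express a gene and less RNA per cell cannot be told apart. Between 2 h and 4 h, 3 members (Polr1c, Gnl3 and Rrs1) were lower by 2-fold or more, or 6.98%, against 5.41% of all genes (0.843% higher). By these counts the members did not stand apart from the array as a whole, but they are brighter than most genes. A mean log2 signal of at least that of 1000 was reached by 36 of 43 members and 3880 of 9723 genes. At that brightness, a cut chosen after the values were seen, 11.1% of members were lower at 4 h, against 5.52% of genes. The cut uses the treated arrays too, so genes with lower signals there are more likely to miss it. The results below concern which members differed.

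**Figure D1:**
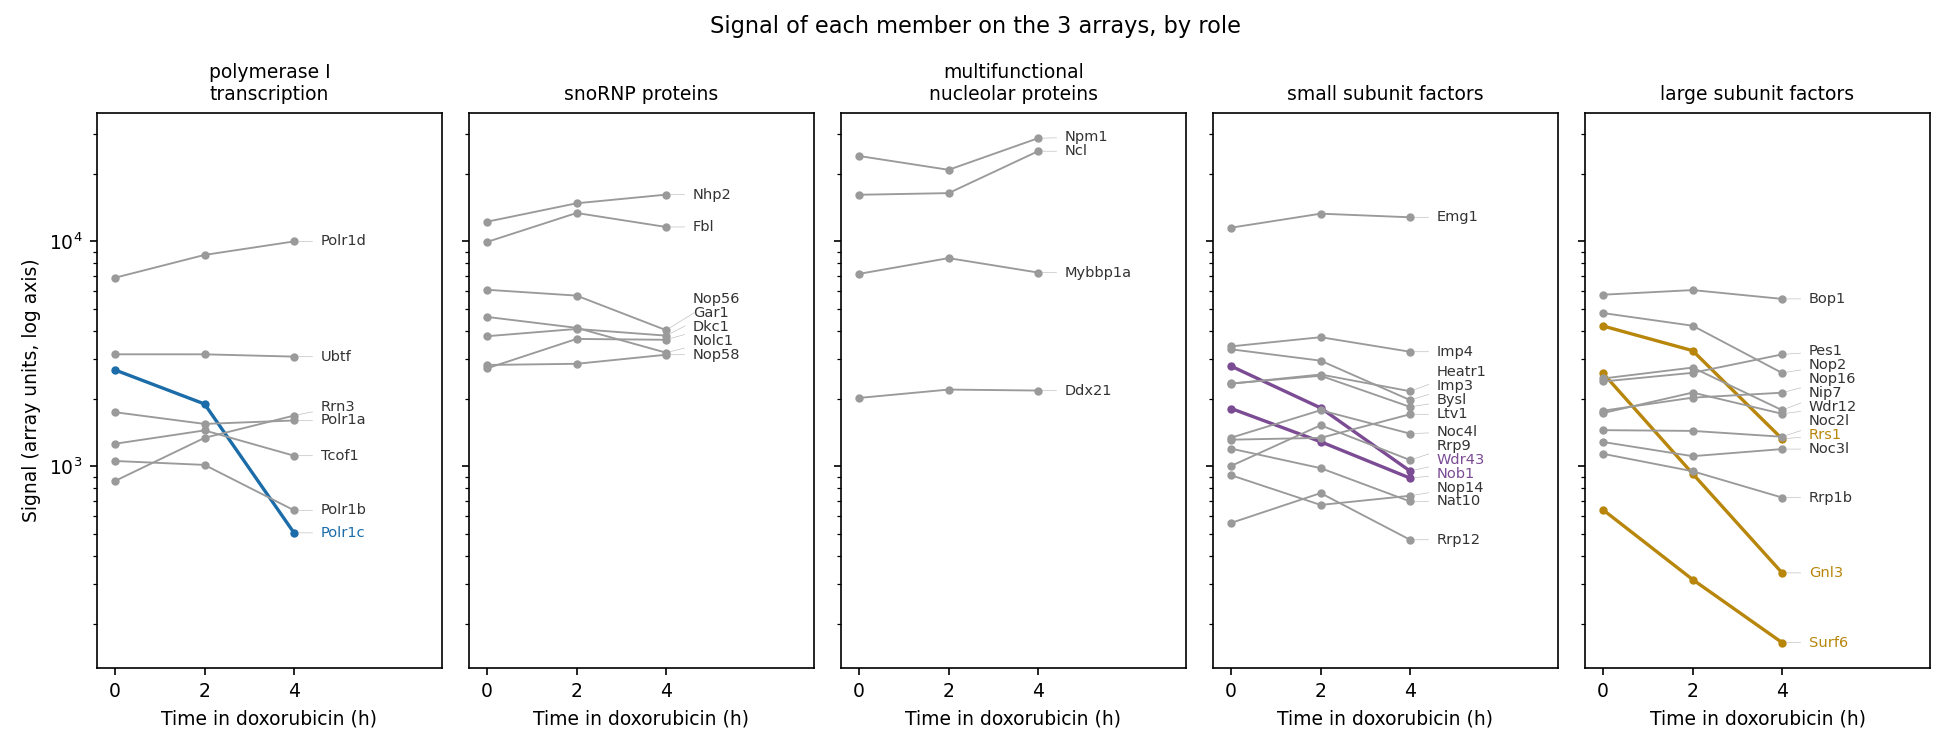
Signal of each of the 43 passing members at 0, 2 and 4 h, in array units on a log axis, in 1 panel per role; each point is 1 array, and coloured lines mark the 6 members lower by 2-fold or more at 4 h. Most lines are nearly level, while Gnl3 runs from 2587 to 336 and Polr1c from 2679 to 506.

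The middle of the group barely shifted. The members' median log2 ratio was 0.03 at 2 h and -0.10 at 4 h, while the whole array had -0.01 and -0.07. At 4 h, 17 members lay above 0 and 26 below it, and 53.9% of all genes lay below 0. Of the members, 27 of 43 stayed within 0.5 of 0 on the log2 scale, as did 55.8% of all genes. Different probe sets of 1 gene gave a measure of error within the arrays: the standard deviation of the log2 ratio between them was 0.25 at 2 h and 0.40 at 4 h over the 26 members with several passing probe sets, and 0.40 and 0.48 over 3905 genes. Spread from culture to culture is not part of this measure. Of those 26 members, 16 had the same sign in all passing probe sets at 4 h.

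**Figure D2:**
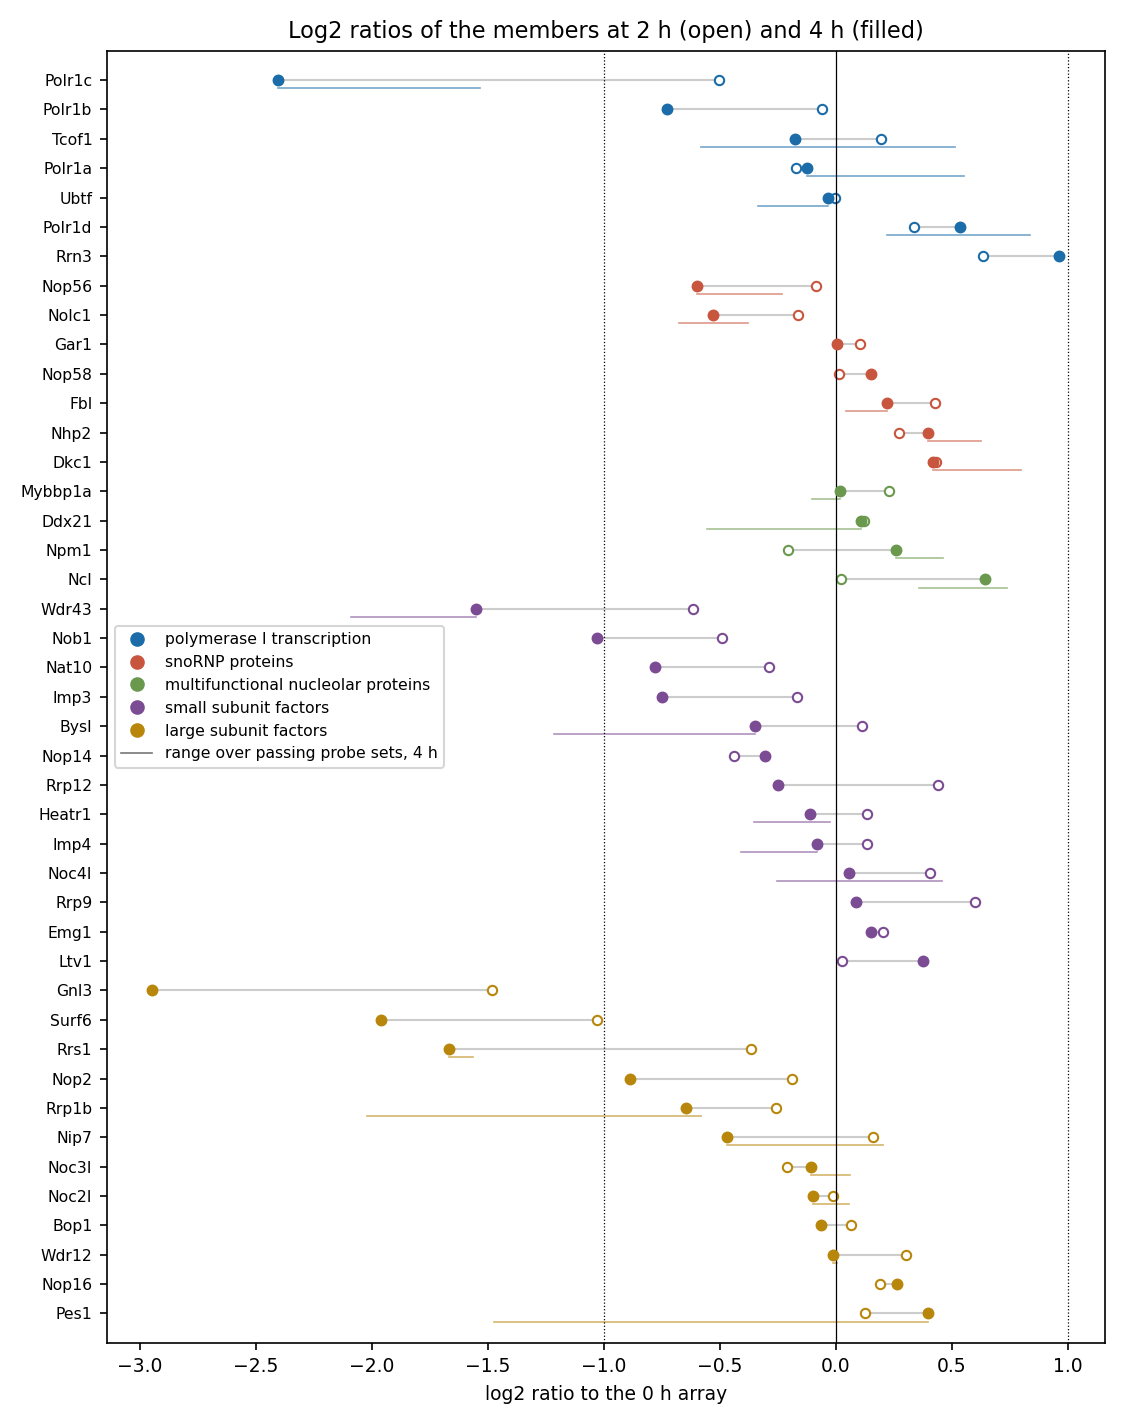
Log2 ratio of each passing member to the 0 h array at 2 h (open circles) and 4 h (filled circles), by role; the thin line under a gene spans its passing probe sets at 4 h, and dotted lines mark 2-fold. The 6 members past the lower line at 4 h are 1 polymerase I subunit, 2 small subunit factors and 3 large subunit factors. Among all genes 14.4% were lower by 2-fold or more.

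Members with a bright signal tended to have higher ratios, as did genes in general in this scaling. Across the 43 members, mean log2 signal and the 4 h log2 ratio had a Pearson r of 0.45 and a Spearman rho of 0.48, against 0.30 and 0.32 across all 9723 genes. These are descriptions over genes that share the same 3 arrays, and the mean signal includes the 4 h array, so it is not independent of the ratio. In a comparison chosen after the values were seen, 36 members and 3880 genes had a mean log2 signal of at least that of 1000. Of these, no member was lower by 2-fold or more at 2 h, against 1.01% of the genes, and 4 members (11.1%) were at 4 h, against 5.52%. Their median log2 ratio at 4 h was -0.02, against 0.19 for the genes of that brightness. The mean is over all 3 arrays, so a gene whose signal fell is more likely to miss this cut. Gnl3 missed it with a signal of 2587 at 0 h. The counts at this brightness, and that of no member at 2 h, thus depend in part on the ratios themselves.

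**Figure D3:**
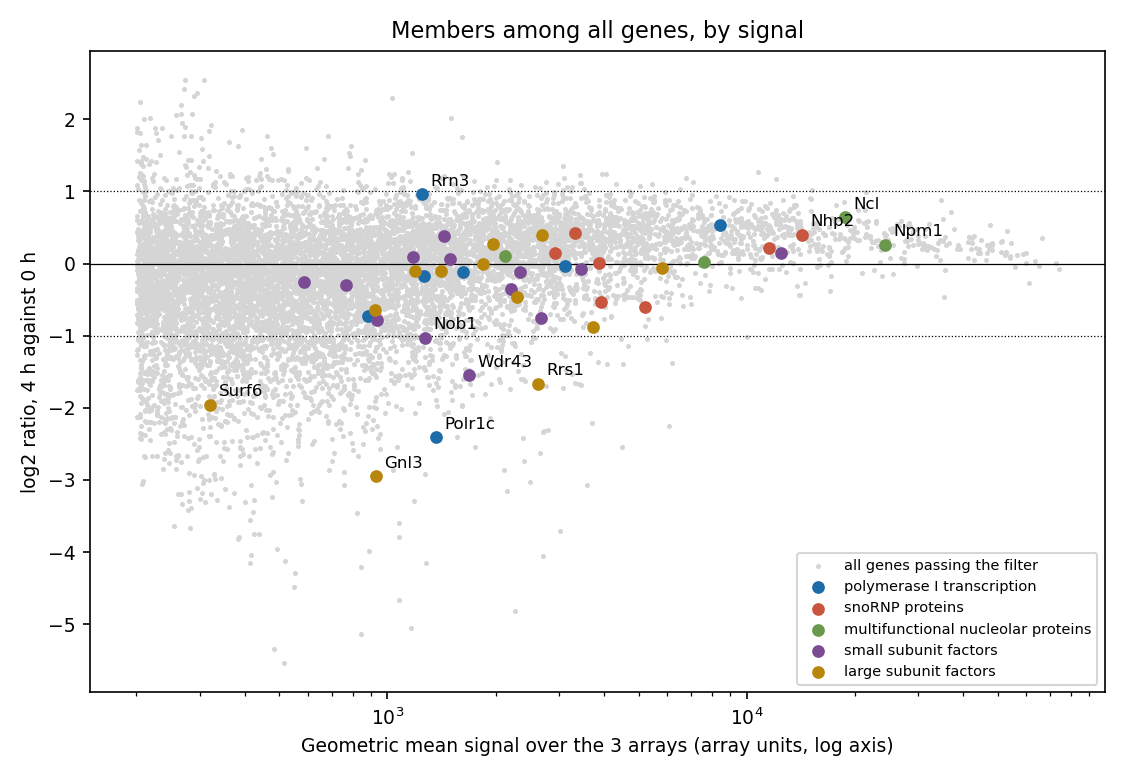
Log2 ratio at 4 h against 0 h plotted against the geometric mean signal over the 3 arrays (log axis), for all 9723 passing genes (grey) and the 43 members (coloured by role). The members run from Surf6 at the dim end to Npm1 and Ncl at the bright end, and the grey cloud lies slightly above 0 among bright genes.

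Promoter stretches of members at the ends of this range are shown because their mRNAs differed most, together with Nop2, whose window holds a canonical E-box, the CACGTG site that Myc and related factors bind. Windows of 300 bases, from 250 before to 50 after the annotated start, were taken from RefSeq (GRCm38.p6), which held them for 38 members. The last 100 bases before the start are printed for Gnl3 (chr14:31019132-31019231, - strand), Surf6 (chr2:26902888-26902987, - strand), Polr1c (chr17:46248046-46248145, - strand), Nob1 (chr8:107425039-107425138, - strand), Rrn3 (chr16:13780599-13780698, + strand) and Nop2 (chr6:125131783-125131882, + strand), and 30 bases after the start for Wdr43 (chr17:71616220-71616249, + strand). Capitals mark complete matches to CACGTG, to CACGCG (a noncanonical E-box) or to CCGGAAG (a core of ETS factor sites), on either strand.
Gnl3: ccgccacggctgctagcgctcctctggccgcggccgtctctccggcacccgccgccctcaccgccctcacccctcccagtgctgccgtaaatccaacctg
Surf6: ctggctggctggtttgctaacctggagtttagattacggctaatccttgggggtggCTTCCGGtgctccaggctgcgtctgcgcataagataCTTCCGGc
Polr1c: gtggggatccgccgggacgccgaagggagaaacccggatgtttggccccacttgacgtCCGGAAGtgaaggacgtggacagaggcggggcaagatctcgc
Nob1: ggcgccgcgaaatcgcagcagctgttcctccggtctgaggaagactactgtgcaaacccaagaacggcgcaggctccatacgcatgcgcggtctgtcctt
Rrn3: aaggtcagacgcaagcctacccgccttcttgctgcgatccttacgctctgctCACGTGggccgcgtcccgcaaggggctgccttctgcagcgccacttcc
Nop2: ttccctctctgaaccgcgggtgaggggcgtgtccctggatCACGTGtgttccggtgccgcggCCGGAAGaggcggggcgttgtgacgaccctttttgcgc
Wdr43: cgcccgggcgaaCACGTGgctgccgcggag
The canonical E-box was found in 7 of the 38 member windows (18.4%), against 12.1% of 7937 passing genes with a window and 8.09% of all 27025 genes of the table. Only Wdr43 had it among the 5 windows of members lower by 2-fold or more at 4 h. The other 6 were Imp4, Ltv1, Mybbp1a, Nop2, Pes1 and Rrn3, with 4 h log2 ratios from -0.88 to 0.96. CACGCG was found in 12 member windows (31.6%, against 20.7% of passing genes), and CCGGAAG in 13 (34.2%, against 21.4%). These latter letters were chosen after the values were seen, and overlapping matches within a window count once per gene. Polr1c and Surf6 held CCGGAAG, with first letters at -42 in Polr1c and at -109, -44, -8 and 42 in Surf6, counted in bases from the start, and the printed stretches of Gnl3 and Nob1 hold no match. Rrn3, the member with the highest 4 h ratio, held CCGGAAG at -5 and 19. It was thus in 2 of the 5 windows of lower members (40%), against 34.2% of all members and 44.1% of 102 other pathway genes. CACGCG was in 1 of those 5 windows, that of Polr1c at -175 and -169 (20%, against 20.7% of passing genes). A match of letters is not evidence of binding.

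The Myc probe set read 1613, 109 and 128 on the successive arrays, 14.8-fold and 12.6-fold lower than before treatment. It is no member and is given as background to the E-box search.

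Among the factors of polymerase I transcription, 1 of 7 passing members, Polr1c, was lower by 2-fold or more at 4 h (14.3%, against 14.4% of all genes). The group's median log2 ratio was -0.12. Polr1c and Polr1d encode the alpha-like subunits that pair in the core of polymerases I and III. Polr1c had signals of 2679, 1891 and 506 at 0, 2 and 4 h. It was 5.30-fold lower at 4 h (log2 ratio -2.40 ± 0.62, SD over 2 probe sets), rank 159 from the lowest of 9723 genes, with most of the difference arising after 2 h (-0.50 at 2 h and -1.90 from 2 h to 4 h). Its second probe set ran from 1963 through 1451 to 679, a log2 ratio of -1.53 at 4 h. That was the value for Polr1c when probe sets with suffixed names, such as the brighter one, were left out. Polr1d, its partner, had signals of 6887, 8696 and 9984, with a log2 ratio of 0.54 ± 0.26 at 4 h (SD over 4 probe sets). The 2 subunits of this pair thus went opposite ways on these arrays, in all of their passing probe sets.

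The catalytic subunits differed less. Polr1a, the largest subunit, had signals of 1739, 1543 and 1598, and its log2 ratio at 4 h was -0.12 ± 0.34 (SD over 3 probe sets), and its 2 dimmer probe sets lay above 0, at 0.16 and 0.55, so no direction is given for it. Polr1b, the second largest, had signals of 1056, 1014 and 637, a log2 ratio of -0.73 at 4 h after -0.06 at 2 h. Rrn3, the initiation factor that links polymerase I to the promoter, was the member with the highest ratio. Its signals were 861, 1338 and 1680, 1.95-fold higher at 4 h, just under the threshold of 2-fold. The value rests on 1 probe set, and it passed 2-fold when arrays were set to equal medians (log2 ratio 1.27) or quantile normalized (1.09).

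Ubtf, which shapes active ribosomal DNA, was level at 3145, 3145 and 3072 in its brighter probe set, and read 982, 796 and 780 in the other (-0.33 at 4 h). Tcof1, the nucleolar protein treacle, had signals of 1259, 1443 and 1114, and its 3 probe sets spread from -0.58 to 0.52 at 4 h. Taf1d, a subunit of the promoter selectivity factor SL1, was the 1 member that did not pass the filter. Its 7 probe sets had signals of 418 or less on every array. The brightest of them at 0 h read 418, 159 and 111, and another read 125, 189 and 207, so no direction is given for it. Taf1d was among the members lower by 2-fold or more at both times in 4 alternatives (equal medians, a floor of 200, an offset of 50 and no filter).

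None of the 7 snoRNP members differed by 2-fold at either time. Among all genes 5.69% were lower and 1.41% higher at 2 h, and 14.4% and 2.32% at 4 h. With 7 genes, a count of 0 does not set the group apart from these shares. In all 5 members read by several probe sets these shared 1 sign at 4 h. In box H/ACA particles, the pseudouridine synthase Dkc1 had signals of 2724, 3681 and 3649, a log2 ratio of 0.42 ± 0.20 at 4 h (SD over 3 probe sets). Nhp2, a core protein of the same particle, had signals of 12218, 14752 and 16112 (0.40 ± 0.16, SD over 2 probe sets), and Gar1 was level at 3785, 4077 and 3808. In these probe sets the H/ACA proteins were at or above their 0 h signal on both treated arrays. This direction depends on the scaling for Gar1, with 4 h log2 ratios from -0.31 to 0.31 over the alternatives, and for Nhp2, from -0.03 to 0.70, and not for Dkc1, from 0.10 to 0.73.

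Box C/D proteins were divided in this scaling. The methyltransferase Fbl had signals of 9932, 13358 and 11577, with 0.22 ± 0.12 at 4 h (SD over 2 probe sets), and Nop58 of 2820, 2854 and 3131. Nop56, the partner of Nop58 in the particle, had the lowest ratio of the group, with signals of 6088, 5735 and 4027 (-0.60 ± 0.26 at 4 h, SD over 2 probe sets). Nolc1, a chaperone of snoRNPs that shuttles between nucleolus and Cajal bodies, was also lower, at 4610, 4124 and 3198 (-0.53 ± 0.15, SD over 3 probe sets). Over the alternatives the 4 h direction changed for Fbl, from -0.19 to 0.52, and for Nop58, from -0.17 to 0.45. Nop56 and Nolc1 stayed below 0, at -0.23 and -0.22 or lower. Set against the median of all genes, the group's median was 0.12 (2 h) and 0.22 (4 h), but -0.04 and -0.24 with quantile normalization and -0.02 and -0.04 with a filter of 1000.

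The 4 multifunctional nucleolar proteins included the brightest member probe sets, those of Npm1 and Ncl. None of the 4 differed by 2-fold, while 14.4% of all genes were lower and 2.32% higher at 4 h, so this count says little. Ncl, nucleolin, which binds precursor RNA and ribosomal DNA, had signals of 16096, 16369 and 25137. Its 4 h array stood above the others, with a log2 ratio of 0.64 ± 0.15 over 5 probe sets, all above 0, and it ranged from 0.26 with quantile normalization to 0.95 with equal medians. Npm1, the nucleolar chaperone nucleophosmin, had signals of 23930, 20777 and 28709, 0.26 ± 0.14 at 4 h after -0.20 ± 0.11 at 2 h (SD over 2 probe sets). Its 4 h direction depends on the processing, with log2 ratios from -0.13 to 0.57 over the 11 alternatives that kept it. Mybbp1a, a nucleolar coregulator, had the lowest 4 h ratio of the group, at 7164, 8417 and 7261 (0.02). The helicase Ddx21 had signals of 2013, 2192 and 2171, but its other probe set read -0.56 at 4 h. The group's median relative to all genes was 0.25 at 4 h, and it was -0.09 with quantile normalization.

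Factors of the small subunit held 2 of the 6 lower members, Wdr43 and Nob1, of 13 that passed (15.4%, against 14.4% of all genes). The median log2 ratio of the 13 was 0.11 at 2 h and -0.25 at 4 h. Relative to all genes the 4 h median was -0.18, and it lay between -0.32 and -0.15 under the 12 alternatives. The 2 h median turned from 0.12 above all genes to -0.02 with the values as deposited and to about 0 with quantile normalization. Between 2 h and 4 h, 11 of the 13 had ratios below 0, as did 56.2% of all genes.

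Wdr43, an early-binding factor of the small subunit processome, had signals of 2785, 1817 and 952. At 4 h it was 2.93-fold lower, a log2 ratio of -1.55 ± 0.38 between its probe sets, and its other probe set ran from 1600 to 376. Nob1, the endonuclease that makes the final cut of small subunit RNA, had signals of 1806, 1285 and 886, 2.04-fold lower at 4 h. Nob1 stood just inside the threshold and passed it in 9 of 12 alternatives, with log2 ratios from -1.35 to -0.72. Both genes stepped down on each successive array, Wdr43 in 2 probe sets and Nob1 in the only 1 it has.

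Just outside the threshold were Nat10, an RNA acetyltransferase, at 1198, 981 and 698 (-0.78 at 4 h), and Imp3, a protein bound to the U3 snoRNP, at 3310, 2947 and 1969 (-0.75). Imp4, which sits beside Imp3 in the same complex, was near level at 3411, 3747 and 3229. Of the others, Bysl, a late assembly factor, had a log2 ratio of -0.35 in 1 probe set and -1.21 in the other at 4 h. Nop14, Rrp12 and Heatr1 had -0.30, -0.25 and -0.11, and Noc4l and Rrp9 were at 0.06 and 0.09.

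Emg1, a methyltransferase of the small subunit RNA, was the brightest small subunit member and stayed level, at 11493, 13263 and 12782. Ltv1, a late factor released before the subunit matures, had the highest ratio of the group, with signals of 1313, 1337 and 1703 (0.38 at 4 h). The late factors Nob1 and Ltv1, read by 1 probe set each, therefore lay on opposite sides of their 0 h signals.

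Large subunit factors held the other 3 lower members, Gnl3, Surf6 and Rrs1, of 12 that passed (25%, against 14.4% of all genes). At 2 h they held 2 of the 12 (16.7%, against 5.69%). Gnl3 had the lowest ratio of all members at both times. Its signals were 2587, 927 and 336, 2.79-fold lower at 2 h and 7.70-fold lower at 4 h, rank 188 and rank 65 from the lowest among 9723 genes. The log2 steps from 0 h to 2 h and from 2 h to 4 h were of like size, -1.48 and -1.46. The value rests on 1 probe set, whose suffixed name marks that it may read several transcripts of the gene, and it was lower by 2-fold or more in all 10 alternatives that kept it.

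Surf6 had signals of 640, 314 and 165 on 1 probe set, 2.04-fold lower at 2 h and 3.89-fold lower at 4 h. At 2 h it stood just inside the threshold and passed it in 6 of the 9 alternatives that kept it. Rrs1, which helps to bring the small 5S particle into the large subunit, followed a later course. Its signals were 4200, 3265 and 1323, a log2 ratio of -0.36 ± 0.12 at 2 h and -1.67 ± 0.07 at 4 h (SD over 2 probe sets), which is a signal 3.17-fold lower. Gnl3 and Surf6 were thus already lower by 2-fold at 2 h, while Rrs1, like Polr1c, passed that size only at 4 h.

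Other large subunit factors were closer to their 0 h signals. Nop2, an RNA methyltransferase and the next lowest, had signals of 4796, 4213 and 2598 (-0.88 at 4 h). The PeBoW complex, in which Pes1, Bop1 and Wdr12 act together in precursor processing, was near level at 4 h in Bop1 and Wdr12. Bop1 had signals of 5788, 6069 and 5544, Wdr12 of 1725, 2126 and 1711, and Pes1 of 2382, 2602 and 3142. The dimmer Wdr12 probe set read 250.2, 153 and 251, so the probe sets disagreed at 2 h (0.30 and -0.71). For Pes1 they disagreed at 4 h: the one with the lower signal read 671, 639 and 242, so that the log2 ratio at 4 h was 0.40 in 1 and -1.47 in the other. No direction is given for Pes1 at 4 h.

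Noc2l and Noc3l, which travel with the pre-large subunit, were near level, at -0.10 each at 4 h, and Nop16 was at 0.27. Nip7 was at -0.47 in 1 probe set and 0.20 in the other. Rrp1b had -0.65 at 4 h in its leading probe set (1136, 950 and 726), -0.58 in the second and -2.02 in the third, which read 998, 527 and 246. Averaged over its probe sets, Rrp1b also passed the 2-fold threshold at 4 h (-1.08).

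Other genes of the pathway, 126 in a list drawn up by role, were read in the same way, and 119 passed the filter. At 2 h, 5 were lower by 2-fold or more (4.20%) and none higher, and at 4 h 20 were lower (16.8%) and 1 higher, against 5.69% and 14.4% lower among all genes. Their median log2 ratio was -0.13 at 2 h and -0.21 at 4 h. Lower genes at 4 h numbered 3 of 10 in polymerase I transcription, 2 of 9 snoRNP factors, 2 of 8 multifunctional nucleolar proteins, 7 of 43 small subunit factors, 5 of 35 large subunit factors and 1 of 14 in the exosome and trimming group. The share over the whole list at 4 h lies near the background, and the shares by role, of 8 to 43 genes each, lie on both sides of it. Over the 12 alternatives the count of lower genes was 1 to 9 at 2 h and 6 to 29 at 4 h, and that of higher genes at 4 h was 0 to 4.

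The lowest was Ppan, a large subunit assembly factor, with signals of 1049, 219 and 47.6, at least 10.5-fold lower at 4 h because the last signal was under the floor of 100. Nmd3, the export adaptor of the large subunit, had signals of 1729, 764 and 260 (-2.73 ± 0.11 at 4 h, SD over 2 probe sets). Shq1, a chaperone in the assembly of H/ACA particles, read 559, 266 and 27.2, at least 5.59-fold lower at 4 h. These 3 genes were also lower by 2-fold or more at 2 h. Mphosph10, the protein that binds Imp3 and Imp4 in the U3 complex, had signals of 1609, 857 and 306, 5.26-fold lower at 4 h. Its ratio of -2.40 rests on 1 passing probe set and stands beside -0.75 for Imp3 and -0.08 for Imp4. The other Mphosph10 probe set did not pass the filter and read 237, 154 and 179 (-0.41 at 4 h). Ppan, Shq1 and Imp3 also rest on 1 probe set each.

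The highest was Nsa2, a large subunit factor, with signals of 2055, 3612 and 4273, 2.08-fold higher at 4 h (1.06 ± 0.13, SD over 2 probe sets). Gnl3l, the paralog of Gnl3, had signals of 919, 1384 and 1627 (0.82 at 4 h), opposite in direction to Gnl3. Ftsj3, an RNA methyltransferase, read 1212, 1226 and 2127 (0.81), and Efl1, a GTPase of late large subunit maturation, 417, 381 and 643 (0.62). Each of the last 3 rests on 1 passing probe set.

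Some genes chosen after their values were seen bear on the complexes above. SL1, which recruits polymerase I, includes Tbp, the TATA-binding protein also used by polymerases II and III, with signals of 999, 577 and 279 (-1.84 at 4 h), and Taf1c, with 332, 255 and 28.2, at least 3.32-fold lower. Taf1b, also of SL1, was at 485, 433 and 345 (-0.49). In the H/ACA particle, Nop10 followed Nhp2 and Dkc1, at 14187, 17294 and 18590 (0.39 ± 0.05, SD over 2 probe sets), while the assembly factor Naf1 was at 1256, 762 and 650 (-0.95). In this scaling the core proteins of the particle were thus level or higher. The assembly factors Shq1 and Naf1, read by 1 probe set each, were lower. The other passing snoRNP genes of the list lay on both sides of 0 at 4 h. Nufip1, Znhit3 and Znhit6 were at -1.59, -0.42 and -0.06, and Ruvbl2, Ruvbl1 and Pih1d1 at 0.01, 0.16 and 0.86. The probe sets of Pih1d1 spread from -0.70 to 0.86, so no direction is given for assembly factors as a class.

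**Figure D4:**
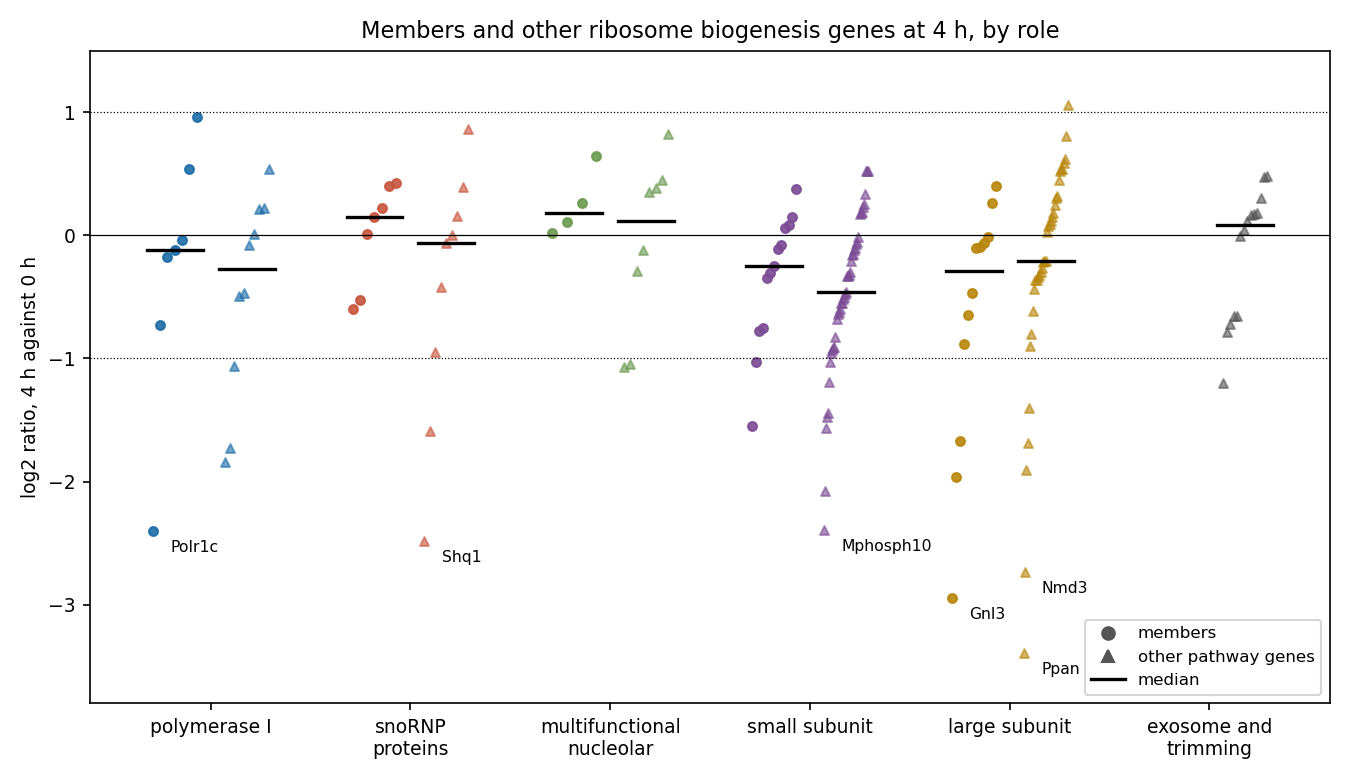
Log2 ratio at 4 h against 0 h for the 43 passing members (circles) and 119 passing other pathway genes (triangles), by role; bars are medians and dotted lines mark 2-fold, and the triangles of Ppan, Shq1 and Taf1c are limits set by the signal floor. In each role most genes lie between the dotted lines, and a tail of genes reaches below -1, longest among the large subunit factors.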

How the data were processed

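The files deposited by the authors hold 1 linear intensity per probe set and array, scaled beforehand: each array's 2% trimmed mean is 150.0. GCOS 1.4 is named in the submitters' processing notes. Which signal algorithm was applied was not stated in the labels. Titles gave each array's time point.

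Intensities were multiplied to bring the trimmed mean to 500, floored at 100 and log2 transformed. A probe set passed at a mean log2 signal of at least that of 200, and a gene took its brightest passing probe set. Genes come from the platform annotation for 34945 of 45101 probe sets with 1 symbol, updated by Entrez ID (RefSeq, GRCm38.p6) where possible. Without replicates no test was run, and genes were counted at 2-fold. The number of arrays limits the precision. SDs are over a gene's probe sets. Signals and ratios were given in full for members past 2-fold, and for the lowest, highest and brightest member of each role. Of the other pathway genes, the 4 lowest and 4 highest at 4 h with probe sets of the same sign were named. Members, roles, lists and alternatives were chosen with earlier results of these data known. The steps were tested on simulated arrays with shifts planted in bright genes only, which does not show how well shifts in dim genes are found. Alternatives were equal medians, quantile normalization, spike-in scaling, the values as deposited, floors of 50 and 200, an offset of 50 and no filter. Others were filters of 400 and (added after seeing the data) 1000, the mean over probe sets, and suffixed probe sets (_a_at, _s_at, _x_at) left out. The main scaling multiplied each array by the same factor, 3.33. The values as deposited are thus no other scaling: the same floor and filter acted at relatively higher signals, and 5153 genes passed. Calculations used Python 3.11.15 with pandas 2.3.3, numpy 2.4.6 and scipy 1.17.1, and plots matplotlib 3.10.9.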

Additional observations from a re-analysis of the deposited data

How the results depend on the processing

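With 1 array per time point nothing here measures variation between cultures. At 4 h the count of members lower by 2-fold or more was 4 to 7 in 11 of 12 alternatives and 10 with scaling to the 18 hybridization spike-ins, where Nop2, Nat10, Imp3 and Polr1b also passed. Polr1c, Rrs1 and Wdr43 passed in all 12 alternatives, and Gnl3 and Surf6 in all that kept them (10 and 9). At 2 h the count of 2 became 1 with the values as deposited, quantile normalization, a filter of 400 or suffixed probe sets left out, 0 with a filter of 1000, and 3 with a floor of 200 or no filter, where Taf1d was added. With equal medians and with quantile normalization 1 member, Rrn3, was higher by 2-fold at 4 h. Both again gave 6 lower members, as did an offset of 50, but Taf1d (equal medians, offset) or Nop2 (quantile) stood in place of Nob1. With equal medians and the offset, Taf1d also stood in place of Surf6 at 2 h. The members' median relative to all genes, 0.04 at 2 h, was -0.060 with the values as deposited and -0.041 with quantile normalization. At 4 h it was -0.03, and -0.19, -0.25, -0.11 and -0.21 with the values as deposited, quantile normalization, and filters of 400 and 1000. The median of all genes at 4 h moved by 0.30 with equal medians, by 0.12 with quantile normalization and by -0.31 with spike-in scaling. Genes lower made up 86.1% of all those past 2-fold at 4 h, against 54.5%, 69.7% and 97.6% in these scalings, and 80.1% at 2 h, against 60.7%, 63.2% and 93.8%. At 2 h the median of each role against all genes took both signs over the 12 alternatives. The ranges were -0.087 to 0.117 for polymerase I transcription, -0.041 to 0.127 for snoRNP proteins and -0.151 to 0.093 for multifunctional proteins. They were -0.016 to 0.153 for small subunit and -0.160 to 0.028 for large subunit factors. At 4 h the medians of the multifunctional and the snoRNP proteins changed sign. The multifunctional proteins at 4 h were at -0.095 with quantile normalization, -0.00129 with a filter of 1000 and -0.000926 with suffixed probe sets left out. Small subunit factors at 2 h were at -0.0160, -0.00424 and -0.00683 with the values as deposited, quantile normalization and a filter of 1000. The snoRNP proteins at 4 h were at -0.24 with quantile normalization and -0.036 with a filter of 1000. The cause of these differences was not tested.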
